A study of Mus musculus with 36 samples.

Results

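The 10 genes described here encode muscle creatine kinase and the enzymes that carry glycogen and glucose to lactate: Ckm, Pygm, Pfkm, Aldoa, Gapdh, Pgk1, Pgam2, Eno3, Pkm and Ldha. They were chosen by symbol from the 56246 genes of the table, and for Pygm and Aldoa, whose symbols stand on more than 1 row, the row with the highest mean was taken. All 10 had a mean above 0.5 TPM and none was lost to a filter on low values.

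Glycogen phosphorylase releases glucose units from glycogen, and glycolysis breaks them down to pyruvate in a chain of enzymes that yields ATP without oxygen. Lactate dehydrogenase then turns pyruvate into lactate, and creatine kinase keeps ATP topped up from phosphocreatine during contraction. Several of these steps are served by paralogous enzymes, of which skeletal muscle makes its own: Ckm, Pygm, Pgam2 and Eno3 are muscle isoforms, while Gapdh, Pgk1, Pkm and Ldha are used by most cells.

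RNA had been sequenced in bulk from tibiae of mice 6 months old, 6 males and 6 females in each of 3 groups. Wild-type mice were untreated (NT). LMNAG608G/G608G mice, which carry a human LMNA transgene with the mutation of Hutchinson-Gilford progeria syndrome in both copies, had received saline or ABE behind the eye 14 days after birth (P14). ABE is an adenine base editor delivered in a pair of AAV9 vectors, and the editing of bone was partial. No group received vectors without the editor, so editing and vectors cannot be told apart between ABE and saline. Against wild-type mice, genotype and injection cannot be told apart. The mice were on a C57BL/6J background, and the transgene, a human genomic segment in a bacterial artificial chromosome, also holds RAB25. Epiphyses and marrow had been removed from the bones. The study calls the groups littermates. The labels give no litters or cohorts, and the wild-type mice have a series of mouse numbers of their own. P-values set a difference between groups against the spread between mice within groups. A difference of cohort or handling between the groups cannot be told apart from the group differences by these tests.

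Between 48064068 and 116206662 reads fell on genes in each library. The deposited unit was TPM, reads per gene length relative to the library's total, and the libraries were brought to a common scale by median ratios of their genes. The rescaled value is called scaled TPM here. The divisors had medians of 1.199 for wild-type, 1.10 for saline-treated and 0.872 for ABE-treated libraries, and library ABE-treated 1, a female, stood apart at 0.216. Osteocyte markers were present in every library, and their summed level ranged from 10.4 to 49.6 scaled TPM in wild-type, from 169.9 to 479 in saline-treated and from 174 to 346 in ABE-treated libraries. Markers of marrow cells were present too, although marrow had been removed. Sums over 8 neutrophil markers were 783 to 2399 scaled TPM in wild-type, 1040 to 3559 in saline-treated and 348 to 3920 in ABE-treated libraries. Those over 8 erythroid markers were 115 to 322, 94.45 to 319.5 and 22.6 to 238 in the same order.

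Skeletal muscle markers were also present in every library, although the tissue was bone. The sum over 25 of them, of which Acta1, Atp2a1, Pvalb and Myh4 were the most abundant and none was at 0 throughout a group, ranged from 263 to 4056 scaled TPM in wild-type, from 441 to 10310 in saline-treated and from 1465 to 17260 in ABE-treated libraries. Of the 25, 19 were called higher and 0 lower between saline-treated and wild-type libraries (median log2 difference 1.31), 25 and 0 between ABE-treated and wild-type (2.56) and 23 and 0 between ABE-treated and saline-treated libraries (1.34). Each of the 10 genes was, like the median of these markers, higher in each of these comparisons. A fit with the mean of the markers as a covariate is given with the comparisons, and the part of muscle content in the differences was not tested. The wild-type libraries 1 and 11, both male, were lowest for these markers.

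The bases before the start of the 4 muscle isoforms are shown because their values went together. Those of Pgk1 and Ldha are shown as examples of genes that most cells use. Those of Gapdh and Pkm, also used by most cells, are described but not shown. Each run holds the 250 bases before a RefSeq transcript start (GRCm38.p6), written 5′ to 3′ on the gene's strand. Capitals mark 3 motifs searched on both strands: CAGCTG, an E box of the kind bound by myogenic factors, the consensus of MEF2, a muscle factor, and ACGTG, the core of the hypoxia response element, whose letters on the other strand are CACGT. In windows of this length before all RefSeq starts, 13.0% of 32851 held CAGCTG, 2.92% MEF2 and 16.6% ACGTG, and a CACGTG counts as 2 overlapping matches of the last.
Ckm, chr7:19410844-19411093, plus strand: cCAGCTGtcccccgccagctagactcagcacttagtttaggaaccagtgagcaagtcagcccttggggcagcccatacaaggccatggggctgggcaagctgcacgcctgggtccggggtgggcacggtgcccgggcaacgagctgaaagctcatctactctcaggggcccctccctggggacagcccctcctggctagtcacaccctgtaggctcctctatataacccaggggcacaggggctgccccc
Pygm, chr19:6384158-6384407, plus strand: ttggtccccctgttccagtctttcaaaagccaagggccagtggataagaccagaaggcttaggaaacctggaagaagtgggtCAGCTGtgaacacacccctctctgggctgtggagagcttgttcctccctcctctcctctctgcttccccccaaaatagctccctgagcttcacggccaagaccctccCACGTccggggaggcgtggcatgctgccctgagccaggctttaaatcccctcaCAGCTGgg
Pgam2, chr11:5803797-5804046, minus strand: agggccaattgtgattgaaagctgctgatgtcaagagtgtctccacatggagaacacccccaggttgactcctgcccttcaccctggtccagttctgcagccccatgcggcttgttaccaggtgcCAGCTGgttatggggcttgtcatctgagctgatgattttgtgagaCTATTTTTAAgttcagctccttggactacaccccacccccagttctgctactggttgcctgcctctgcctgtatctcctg
Eno3, chr11:70656926-70657175, plus strand: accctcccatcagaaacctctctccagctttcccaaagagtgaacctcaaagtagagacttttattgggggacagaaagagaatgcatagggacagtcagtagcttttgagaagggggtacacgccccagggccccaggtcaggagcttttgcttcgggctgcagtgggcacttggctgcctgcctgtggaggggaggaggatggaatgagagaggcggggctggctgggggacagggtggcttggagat
Pgk1, chrX:106186850-106187099, plus strand: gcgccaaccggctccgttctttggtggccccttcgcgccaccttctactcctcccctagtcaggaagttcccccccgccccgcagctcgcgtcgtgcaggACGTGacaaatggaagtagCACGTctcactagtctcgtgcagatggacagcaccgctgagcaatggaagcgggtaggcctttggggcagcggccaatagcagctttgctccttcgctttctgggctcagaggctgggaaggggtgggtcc
Ldha, chr7:46845554-46845803, plus strand: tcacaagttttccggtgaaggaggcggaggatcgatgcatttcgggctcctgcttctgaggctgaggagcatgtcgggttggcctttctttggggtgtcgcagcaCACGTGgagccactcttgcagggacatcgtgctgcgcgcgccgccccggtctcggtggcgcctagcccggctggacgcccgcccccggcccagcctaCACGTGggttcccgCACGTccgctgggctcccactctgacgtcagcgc
Ckm held CAGCTG once, at 249 bases before the start, and Pygm at 168 and 8 bases, beside an ACGTG at 61 bases. In Pgam2 CAGCTG lay at 125 bases and a MEF2 match at 80 bases before the start, and Eno3 held none of the 3 motifs. Pgk1 held ACGTG at 150 and 131 bases and the window shown for Ldha 5 matches, at 145, 144, 48, 47 and 34 bases, with no CAGCTG in either. Among the windows not shown, 1 of Pkm held CAGCTG, at 38 bases, that of Ckb, the paralog of Ckm, a MEF2 match at 29 bases, and that of Gapdh none of the 3 motifs, while ACGTG also lay in windows of Pfkm, Aldoa, Pkm and Pgam1. The other window of Ldha, also not shown, held none of the 3 motifs, and the bases after its start were found in a GENCODE transcript of Ldha. The RefSeq starts of Ckm, Pygm and Ldha lie inside the longer gene spans of the GENCODE annotation, and those of Pgam2 and Eno3 lie upstream of them. The span of Pygm begins at 6384399, so its CAGCTG at 8 bases lies within the span. For the windows shown of Pgam2, Eno3 and Ldha, the bases after the start were not found in a GENCODE transcript of the gene. Distances to the start are less certain there. A match of letters is a description of the sequence, and binding was not measured.

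The 4 muscle isoforms had the widest spread between mice. Ckm, muscle creatine kinase (ENSMUSG00000030399.2, GRCm38 chromosome 7, 19404776 to 19422841, plus strand), lay between 16.1 and 248 scaled TPM in wild-type libraries (median 80.8), between 20.6 and 666 in saline-treated libraries (median 147) and between 77.3 and 1066 in ABE-treated libraries (median 543). In males the 6 wild-type values were 16.06, 19.42, 63.38, 77.96, 107.4 and 118.6, the saline-treated values 96.38, 125.2, 130.2, 336.2, 478.9 and 665.7, and the ABE-treated values 270.1, 275.2, 475.3, 519.9, 566.4 and 703.7. In females the 6 wild-type values were 70.45, 71.94, 83.64, 107.3, 129.6 and 248.3, the saline-treated values 20.55, 49.84, 140.5, 152.9, 187.4 and 290.2, and the ABE-treated values 77.27, 180.0, 568.8, 599.7, 681.1 and 1066. The 3 groups overlapped, although 10 of 12 ABE-treated libraries were above the highest wild-type library. Ckm was 1.06 ± 0.48 (SE) higher on the log2 scale in saline-treated than in wild-type libraries and missed the threshold (adjusted p = 0.0616, limma with Benjamini-Hochberg adjustment over 16123 genes). It was higher in ABE-treated libraries by 2.46 ± 0.48 against wild-type (adjusted p = 3.00e-05, limma), a fold of 5.52, and by 1.41 ± 0.48 against saline-treated libraries (adjusted p = 0.0161, limma), a fold of 2.65. Bulk RNA cannot tell more muscle tissue in a sample from more of these transcripts in each muscle fibre or in other cells of the sample. This holds for each comparison here.

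Pygm, the muscle glycogen phosphorylase (ENSMUSG00000032648.14, GRCm38 chromosome 19, 6384399 to 6398459, plus strand), lay between 8.40 and 102 scaled TPM in wild-type, between 9.14 and 243 in saline-treated and between 36.7 and 407 in ABE-treated libraries, with medians of 36.1, 60.7 and 204. Every ABE-treated library was above the wild-type median, and 10 of 12 were above the highest wild-type library. The log2 difference was 0.93 ± 0.44 (SE) between saline-treated and wild-type libraries, which missed the threshold (adjusted p = 0.0775, limma), 2.28 ± 0.44 between ABE-treated and wild-type (adjusted p = 3.22e-05, limma) and 1.35 ± 0.44 between ABE-treated and saline-treated libraries (adjusted p = 0.0133, limma).

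Pgam2, muscle phosphoglycerate mutase (ENSMUSG00000020475.3, GRCm38 chromosome 11, 5801640 to 5803733, minus strand), ranged from 5.63 to 83.1 scaled TPM in wild-type, from 6.04 to 183 in saline-treated and from 29.6 to 357 in ABE-treated libraries, around medians of 28.2, 61.9 and 198. Eno3, the enolase of muscle (ENSMUSG00000060600.15, GRCm38 chromosome 11, 70657202 to 70662513, plus strand), ranged from 10.2 to 132, from 13.2 to 303 and from 49.7 to 654 scaled TPM in the same order, around medians of 48.3, 90.4 and 310. Both genes spanned all 3 groups without a gap, and for both 10 of 12 ABE-treated libraries were above every wild-type library. Pgam2 was higher by 1.12 ± 0.47 (SE, log2) in saline-treated than wild-type libraries (adjusted p = 0.0458, limma), by 2.57 ± 0.47 in ABE-treated than wild-type (adjusted p = 1.48e-05) and by 1.45 ± 0.47 in ABE-treated than saline-treated libraries (adjusted p = 0.0129). Eno3 was higher by 1.08 ± 0.45 (adjusted p = 0.0441, limma), 2.49 ± 0.45 (adjusted p = 1.26e-05) and 1.41 ± 0.45 (adjusted p = 0.0119) in these comparisons. Without the wild-type libraries 1 and 11, both genes lost the call between saline-treated and wild-type libraries, at 0.65 ± 0.44 (adjusted p = 0.222, limma) for Pgam2 and 0.66 ± 0.43 (adjusted p = 0.207, limma) for Eno3.

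**Figure D1:**
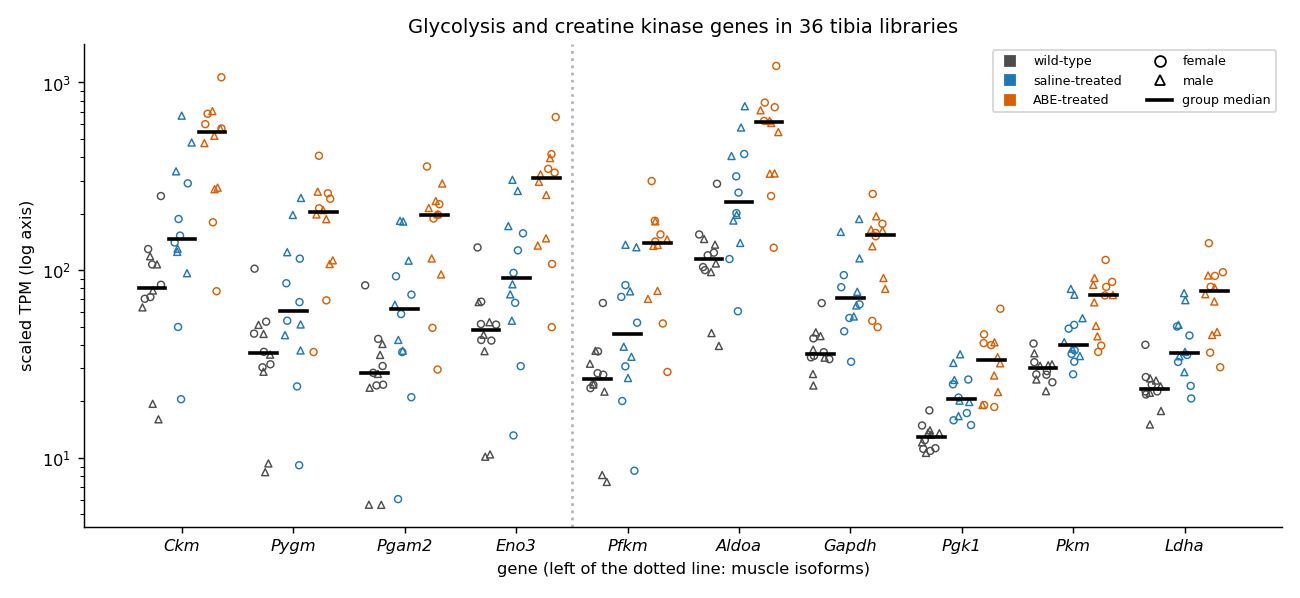
Scaled TPM (log axis) of the 10 genes in each of the 36 tibia libraries, by group (colour) and sex (symbol), with a black bar at the median of each group. For each gene the median is lowest in wild-type and highest in ABE-treated libraries, the muscle isoforms spread over 11.1-fold or more within each group, and Pgk1 is the gene whose wild-type and ABE-treated points leave a gap.

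Pfkm catalyses the committed step of glycolysis and is the muscle type of phosphofructokinase, although it is also made elsewhere. It lay between 7.45 and 66.9 scaled TPM in wild-type, between 8.54 and 137 in saline-treated and between 28.7 and 298 in ABE-treated libraries, with medians of 26.2, 45.8 and 139. Its differences were close to those of the muscle isoforms: 0.89 ± 0.40 (SE, log2) between saline-treated and wild-type libraries (adjusted p = 0.0596, limma), 2.20 ± 0.40 between ABE-treated and wild-type (adjusted p = 1.25e-05) and 1.303 ± 0.40 in ABE-treated against saline-treated libraries (adjusted p = 0.00872). Aldoa, the aldolase of muscle and of most other cells, was the most abundant of the 10 and had medians of 114, 230 and 616 scaled TPM, with ranges of 39.5 to 289, 60.5 to 747 and 132 to 1225. Aldoa was higher by 1.16 ± 0.36 in saline-treated than wild-type libraries (adjusted p = 0.00815, limma), by 2.19 ± 0.36 in ABE-treated than wild-type (adjusted p = 3.14e-06) and by 1.03 ± 0.36 in ABE-treated than saline-treated libraries (adjusted p = 0.0197). For both genes 10 of 12 ABE-treated libraries were above every wild-type library.

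Gapdh and Pgk1 act one after the other in the payoff phase of glycolysis. Gapdh, glyceraldehyde-3-phosphate dehydrogenase, lay between 24.3 and 66.8 scaled TPM in wild-type, between 32.5 and 187 in saline-treated and between 49.7 and 255 in ABE-treated libraries, with medians of 35.8, 71.3 and 155. It was higher by 1.02 ± 0.25 (SE, log2) in saline-treated than wild-type libraries (adjusted p = 0.00112, limma), by 1.72 ± 0.25 in ABE-treated than wild-type (adjusted p = 5.14e-07) and by 0.70 ± 0.25 in ABE-treated than saline-treated libraries (adjusted p = 0.0237). The last of these calls was lost without library ABE-treated 1, at 0.59 (adjusted p = 0.0541, limma), or without library saline-treated 4, at 0.59 (adjusted p = 0.0527, limma).

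Pgk1, phosphoglycerate kinase, is X-linked (ENSMUSG00000062070.12, GRCm38 chromosome X, 106187100 to 106203699, plus strand). It was the least abundant of the 10 in each group, between 10.6 and 17.9 scaled TPM in wild-type, between 14.96 and 35.7 in saline-treated and between 18.7 and 62.4 in ABE-treated libraries, with medians of 12.9, 20.6 and 33.2. The lowest ABE-treated library was above the highest wild-type library, so that these groups did not overlap, which holds for 3.41% of the genes tested (higher, no overlap). In saline-treated libraries 8 of 12 were above every wild-type library. Pgk1 was higher by 0.74 ± 0.17 (SE, log2) in saline-treated than wild-type libraries (adjusted p = 0.000508, limma), by 1.25 ± 0.17 in ABE-treated than wild-type (adjusted p = 1.26e-07) and by 0.52 ± 0.17 in ABE-treated than saline-treated libraries (adjusted p = 0.0131).

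Pkm makes pyruvate and Ldha, the A subunit of lactate dehydrogenase, makes lactate from it. Across wild-type, saline-treated and ABE-treated libraries Pkm had medians of 30, 39.8 and 73.5 scaled TPM, with ranges of 22.7 to 40.7, 27.9 to 79.5 and 36.7 to 113. Ldha had medians of 23.3, 36.03 and 77.7 scaled TPM, with ranges of 15.1 to 40.1, 20.7 to 75.4 and 30.4 to 139. Both genes overlapped between groups, with 10 of 12 ABE-treated libraries above every wild-type library. Pkm was higher by 0.56 ± 0.17 (SE, log2) in saline-treated than wild-type libraries (adjusted p = 0.00660, limma), by 1.14 ± 0.17 in ABE-treated than wild-type (adjusted p = 6.25e-07) and by 0.58 ± 0.17 in ABE-treated than saline-treated libraries (adjusted p = 0.00651). Ldha was higher by 0.72 ± 0.22 (adjusted p = 0.00617, limma), 1.51 ± 0.22 (adjusted p = 3.65e-07) and 0.79 ± 0.22 (adjusted p = 0.00448). The table also lists pseudogenes of Gapdh, Pgk1, Ldha and Aldoa, so the levels of these 4 genes are uncertain as far as reads were shared with such copies.

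Counted together, 7 of 10 members were higher in saline-treated than in wild-type libraries at an adjusted p under 0.05 (limma) and none was lower, where 25.8% of all 16123 genes were called higher and 26.9% lower. All 10 were higher in ABE-treated than in wild-type libraries, where 34.7% of genes were called higher and 35.8% lower, and all 10 in ABE-treated than in saline-treated libraries, where 24.8% were called higher and 23.6% lower. Groups did not overlap for 1 member between ABE-treated and wild-type libraries and for 0 members in the other comparisons, where 2.69% of genes were higher without overlap in saline-treated than wild-type libraries and 0.031% in ABE-treated than saline-treated libraries. The median log2 difference of the 4 muscle isoforms was 1.07, 2.48 and 1.41 in these comparisons, and that of the 6 others 0.82, 1.61 and 0.74, beside medians over all genes of 0.0013, -0.022 and -0.0023. The 3 comparisons share groups and are not independent of each other. On TPM as deposited, which lowers the median of all genes by 0.27 between ABE-treated and saline-treated libraries, no member passed in that comparison (limma), where 3.35% of genes were called higher (540, against 6580 lower), 5 members had an unadjusted p under 0.05, and Ckm was higher by 0.997 ± 0.45 (adjusted p = 0.0683). Without the wild-type libraries 1 and 11, 5 members passed between saline-treated and wild-type libraries (Aldoa, Gapdh, Pgk1, Pkm and Ldha), where 22.3% of genes were called higher, with Ckm at 0.61 ± 0.45 (adjusted p = 0.270, limma), and 10 did between ABE-treated and wild-type libraries, where 33.3% were. On TPM as deposited 3 members passed between saline-treated and wild-type libraries (Aldoa, Gapdh and Pgk1), where 6.42% of genes were called higher, and 10 between ABE-treated and wild-type libraries, where 9.11% were.

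**Figure D2:**
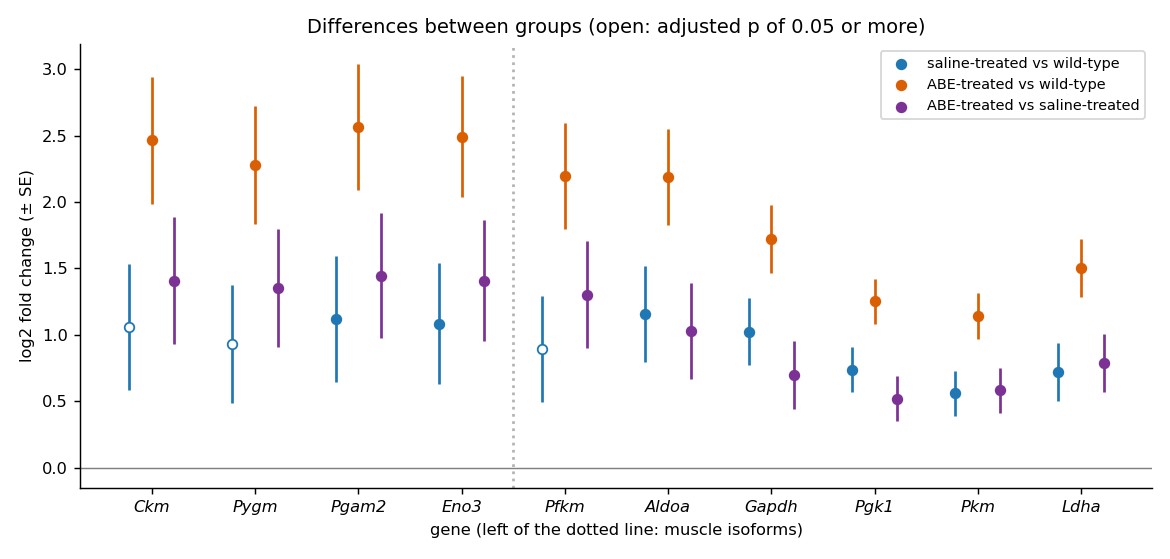
Log2 fold changes (± SE, n = 12 libraries in each group) of the 10 genes in the 3 comparisons, with filled points for an adjusted p under 0.05 and open points otherwise. The open points are Ckm, Pygm and Pfkm between saline-treated and wild-type libraries, and the difference between ABE-treated and wild-type libraries lies between 1.14 for Pkm and 2.57 for Pgam2.

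Each sex was also compared on its own. In females, between saline-treated and wild-type libraries, Ckm differed by -0.05 ± 0.64 (SE, log2), Pygm by -0.02 ± 0.60, Pgam2 by 0.01 ± 0.63 and Eno3 by 0.06 ± 0.61, and none of the 10 members passed in a limma fit of 6 means, 1 for each group and sex (1 had an unadjusted p under 0.05, Pgk1), where 27.9% of genes did. In males the values were 2.16 ± 0.64 for Ckm, 1.88 ± 0.60 for Pygm, 2.23 ± 0.63 for Pgam2 and 2.11 ± 0.61 for Eno3, and all 10 members passed, where 52.2% of genes did. The difference between the sexes was 2.21 ± 0.90 for Ckm (adjusted p = 0.157, limma interaction) and lay between 0.31 for Pgk1 and 2.22 for Pgam2. No member passed this test (5 had an unadjusted p under 0.05), which 0.49% of genes passed, so a sex difference of the members was not shown. The wild-type libraries 1 and 11 are both male. Without them, males alone gave 1.40 ± 0.51 for Ckm (adjusted p = 0.0390, limma) and 8 of 10 members passed, not Pygm and Pfkm, where 21.9% of genes were called higher.

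Between ABE-treated and saline-treated libraries the values were the higher ones in females. In that sex all 10 members passed in the fit of 6 means, where 41.5% of genes did, with Ckm at 1.91 ± 0.64 (SE, log2) and Pgk1 at 0.80 ± 0.24. In a fit of females alone 8 passed, where 17.2% of genes were called higher, but not Aldoa (adjusted p = 0.0619, limma) and Gapdh (adjusted p = 0.0540, limma). In males none passed, nor had any an unadjusted p under 0.05, where 15.1% of genes passed, with Ckm at 0.90 ± 0.64 and Pgk1 at 0.23 ± 0.24. The interaction did not pass for any member here either (adjusted p from 0.381 to 0.642, limma), where 0.0496% of genes passed, and no member had an unadjusted p under 0.05 in it. Between ABE-treated and wild-type libraries all 10 members passed in each sex, where 59.3% of genes did in females and 64.1% in males, and no member passed the interaction (0 at an unadjusted p under 0.05, limma), which 3.04% of genes did.

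**Figure D3:**
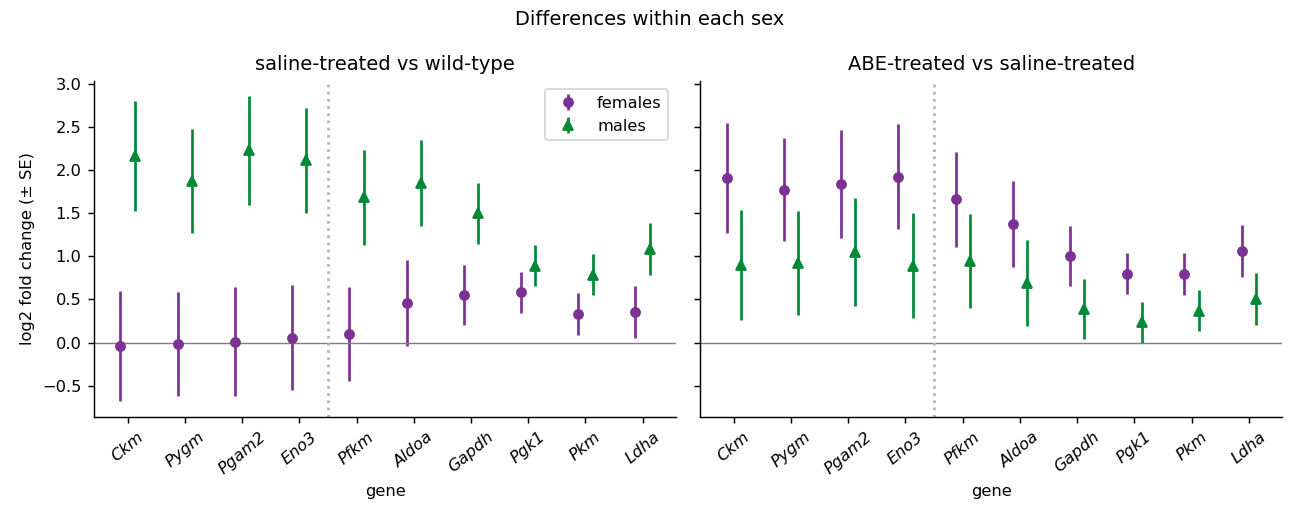
Log2 fold changes (± SE, 6 libraries in each group and sex) of the 10 genes within females (circles) and males (triangles), between saline-treated and wild-type libraries on the left and between ABE-treated and saline-treated libraries on the right. The muscle isoforms lie near 0 in females and near 2 in males on the left, and on the right each gene has its higher value in females.

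The members were also compared with their paralogs within each library. The ratio was taken as the log2 ratio of scaled TPM + 0.5 and tested by exact permutation of group labels within each sex (853776 arrangements, two-sided), with p adjusted over 8 pairs and 3 comparisons. In wild-type libraries the median ratio was 9.34 for Ckm over Ckb, the creatine kinase of brain and many other tissues, 10.7 for Pygm over Pygb, 6.01 for Pygm over Pygl, the phosphorylases of brain and liver, 5.67 for Pgam2 over Pgam1 and 5.06 for Eno3 over Eno1. In ABE-treated libraries these medians were 36.1, 75.9, 47.4, 43.9 and 30.2. The muscle isoform was the more abundant of each pair in the median library of both groups.

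Between ABE-treated and wild-type libraries 7 of 8 ratios were higher. The share of all pairs of genes that would pass was not computed. This count and those of the other comparisons therefore do not set these pairs apart from other pairs. Pygm/Pygb and Pygm/Pygl share Pygm and are not separate results. Pygm over Pygb was higher by 2.63 ± 0.41 (SE, log2, adjusted p = 0.000281 by exact permutation), Pygm over Pygl by 2.76 ± 0.56, Pgam2 over Pgam1 by 2.59 ± 0.52 and Eno3 over Eno1 by 2.36 ± 0.49 (each adjusted p = 0.000665), and Ckm over Ckb by 1.92 ± 0.51 (adjusted p = 0.00615 by exact permutation). Pfkm over Pfkl, the liver type, was higher by 2.29 ± 0.37 (adjusted p = 0.000281 by exact permutation). The ratio of Aldoa to Aldoc was higher by 2.27 ± 0.36 (adjusted p = 0.000281 by exact permutation), but Aldoc reached at most 0.290 scaled TPM in a library, below the 0.5 added, so this ratio follows Aldoa alone. Ldha over Ldhb, the B subunit, did not pass, at -0.19 ± 0.16 (adjusted p = 0.227 by exact permutation). The same 7 ratios passed between ABE-treated and saline-treated libraries, with differences from 1.11 for Aldoa over Aldoc to 2.15 for Ckm over Ckb, and Ldha over Ldhb was again not called, at -0.29 ± 0.17 (adjusted p = 0.149 by exact permutation). On TPM as deposited 6 of the 7 passed in that comparison, not Aldoa/Aldoc at 0.779 (adjusted p = 0.0832 by exact permutation). In females alone no ratio passed in any comparison, although the differences stayed large, at 2.191 for Pygm/Pygb against wild-type (adjusted p = 0.135 by exact permutation) and 2.384 for Ckm/Ckb against saline (adjusted p = 0.143 by exact permutation). In males alone 7 ratios passed against wild-type and 2 against saline, Ckm/Ckb at 1.909 (adjusted p = 0.0130 by exact permutation) and Pgam2/Pgam1.

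Between saline-treated and wild-type libraries 2 of 8 ratios passed, Pygm over Pygb at 1.195 ± 0.48 (SE, log2, adjusted p = 0.0347 by exact permutation) and Aldoa over Aldoc at 1.16 ± 0.38 (adjusted p = 0.0151). The call of Pygm over Pygb was lost without any 1 of 10 of the 24 libraries (differences from 1.037 to 1.419 over all 24, adjusted p up to 0.0674 by exact permutation) and in females alone, at 0.325 for Pygm/Pygb (adjusted p = 0.664 by exact permutation). Ckm over Ckb stood at -0.22 ± 0.53 (adjusted p = 0.685 by exact permutation), and Ckb was itself higher in saline-treated than wild-type libraries, by 1.28 ± 0.19 (adjusted p = 1.27e-06, limma), and stood at -0.74 ± 0.19 (adjusted p = 0.00283, limma) in ABE-treated against saline-treated libraries. Mean Ckb was 8.95 ± 2.38 (SD, n = 12) scaled TPM in wild-type libraries, 23.0 ± 7.46 with saline and 13.8 ± 5.90 with ABE. Eno1 and Pgam1 were higher in saline-treated than wild-type libraries by 0.44 ± 0.10 (adjusted p = 0.000292, limma) and 0.34 ± 0.10 (adjusted p = 0.00558, limma), with ABE-treated values of -0.31 and -0.36 against saline-treated libraries (adjusted p = 0.00918 and 0.00485, limma). Ldhb went with Ldha instead, at 0.62 ± 0.25 (adjusted p = 0.0368, limma) between saline-treated and wild-type and 1.69 ± 0.25 (adjusted p = 5.33e-07, limma) between ABE-treated and wild-type libraries.

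**Figure D4:**
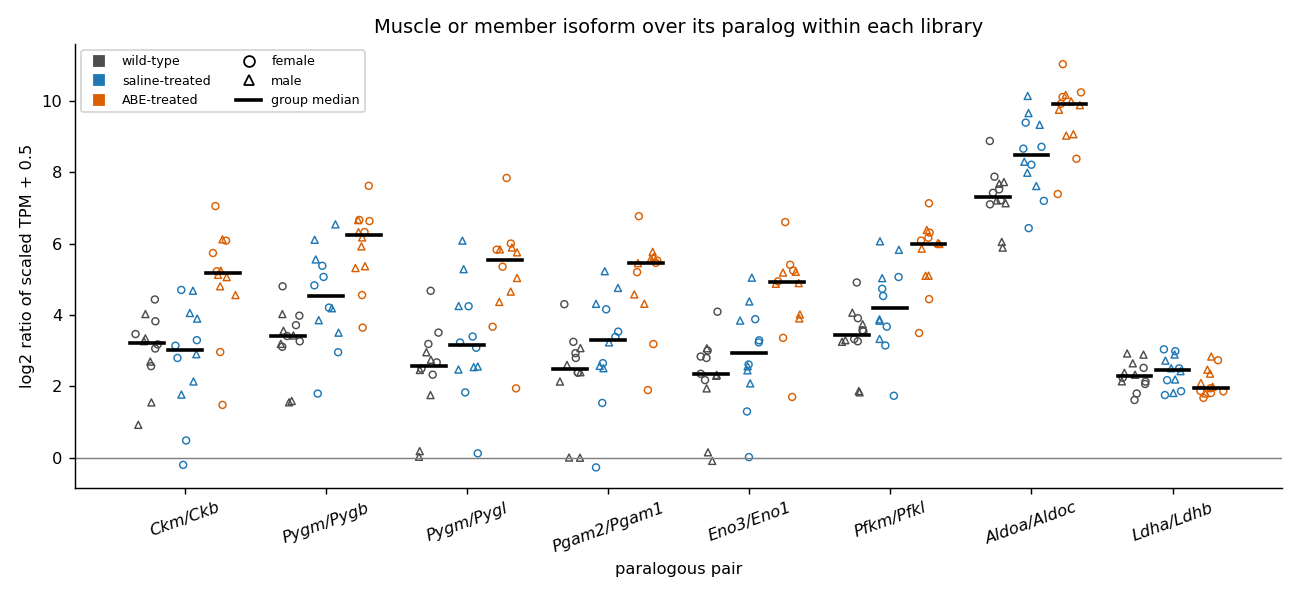
Log2 ratio of scaled TPM + 0.5 of each enzyme over its paralog in the 36 libraries, by group (colour) and sex (symbol), with a black bar at the group median. The first 7 pairs have their highest median in ABE-treated libraries, and Ldha over Ldhb stays between 1.62 and 3.04 in every library.

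Members were set beside the skeletal muscle list within each group of 12 mice. The mean log2(scaled TPM + 0.5) of its 25 genes had a group mean of 4.55 ± 1.05 (SD, n = 12) in wild-type libraries, 5.62 ± 1.06 with saline and 6.996 ± 0.80 with ABE. All 30 relations, 10 members in 3 groups, passed by Pearson's r with 100000 permutations and adjustment over the 30, all 30 passed by Spearman's rho, and 29 passed without the 2 libraries farthest from the median. The share of all genes that would pass was not computed, so these counts do not set the members apart from other genes. In wild-type libraries Ckm had r = 0.988 (permutation p = 1e-05, the smallest these permutations can give, adjusted 1.76e-05) and rho = 0.944 (permutation p = 2e-05, adjusted 6.67e-05), with r = 0.960 without those 2 libraries. Pgk1 in wild-type libraries had r = 0.623 (permutation p = 0.0335, adjusted 0.0335), rho = 0.587 (permutation p = 0.0489, adjusted 0.0489) and r = 0.639 without the 2 libraries, and was the relation no longer called then (permutation p = 0.0519). Within sex r was 0.992 for Ckm and 0.754 for Pgk1 in wild-type libraries.

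Slopes were steeper for the muscle isoforms than for the genes most cells use, as a description without a test. For a difference of 1 in the mean log2 level of the muscle list, Ckm differed by 1.03 in wild-type libraries, 1.24 with saline and 1.25 with ABE, and Pgam2, Pygm and Eno3 had slopes from 0.93 to 1.25. Pgk1 had slopes of 0.13, 0.34 and 0.57, Pkm of 0.17, 0.40 and 0.56, Ldha of 0.30, 0.50 and 0.74 and Gapdh of 0.31, 0.64 and 0.83. Those of Aldoa were 0.71, 0.94 and 1.05. On TPM as deposited 28 of 30 relations passed, and those of Pgk1 and Pkm in wild-type libraries did not, at r = 0.0460 (permutation p = 0.889) and r = 0.166 (permutation p = 0.605).

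**Figure D5:**
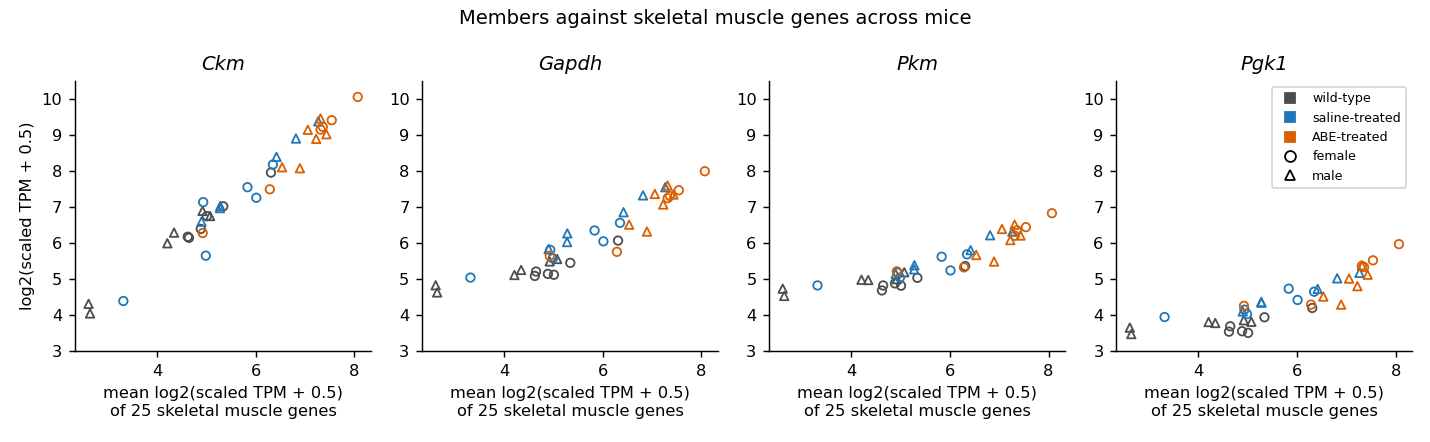
Level of Ckm, Gapdh, Pkm and Pgk1, as log2(scaled TPM + 0.5), against the mean of 25 skeletal muscle genes on the same scale, for 36 libraries by group (colour) and sex (symbol). The points of Ckm rise along a line with a slope near 1, and those of Pgk1 are nearly flat in wild-type libraries and steeper in ABE-treated libraries.

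With the mean of the muscle list as a covariate in the same limma fit, the 4 muscle isoforms and Pfkm had small negative differences, none of which passed: Ckm stood at -0.19 ± 0.13 (SE, log2, adjusted p = 0.252) between saline-treated and wild-type, -0.39 ± 0.17 (adjusted p = 0.0822) between ABE-treated and wild-type and -0.21 ± 0.14 (adjusted p = 0.381) between ABE-treated and saline-treated libraries. Gapdh kept its call between saline-treated and wild-type libraries, at 0.42 ± 0.13 (adjusted p = 0.00984, limma), and Pgk1 at 0.41 ± 0.13 (adjusted p = 0.0104, limma), 2 of 10 members where 21.5% of genes were called higher. Pgk1 also passed between ABE-treated and wild-type libraries, at 0.49 ± 0.17 (adjusted p = 0.0294, limma), and was the member that did, where 13.2% of genes were called higher. No member passed between ABE-treated and saline-treated libraries, none had an unadjusted p under 0.05 there, and 435 genes in all were called in that fit, 1.92% of those tested as higher.

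Across levels, which TPM puts per gene length, Aldoa was above Ckm, Ckm above Eno3 and Eno3 above Pygm in 12 of 12 libraries of each group. Pgk1 had the lowest mean in each group and was below the next gene in 12 of 12 libraries. The genes in between changed places: Pygm was above Gapdh in 5 of 12 wild-type libraries, so that these neighbours were not separated, and Pgam2 was above Gapdh in 10 of 12 ABE-treated libraries but below it in 11 of 12 wild-type and 11 of 12 saline-treated libraries. Pkm and Ldha, neighbours in ABE-treated libraries, differed by 0.03 ± 0.17 (SD, n = 12) on the log2 scale.

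Over all 36 libraries the genes nearest to Ckm by Pearson's r of log2(scaled TPM + 0.5), among 2314 genes compared, were Pygm (r = 0.998), Eno3 (0.996), Sh3bgr (0.994), Tnnt3, a fast troponin (0.993), and Casq1, the calsequestrin of fast fibres (0.993). The nearest to Gapdh were the glycolytic genes Tpi1 (0.991), Pkm (0.988) and Ldha (0.987), then Sqstm1 (0.981) and Tbx15 (0.979). The 3 nearest to Pkm were Ldha (0.989), Gapdh (0.988) and Tpi1 (0.988). Pgk1 stood among genes of mitochondrial respiration, Ndufb6 (0.986), Atp5pb (0.983), Ndufa4 (0.983), Atp5c1 (0.982) and Cox7b (0.982). These libraries share the differences between the 3 groups, so the coefficients are a description.

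The other genes of glycolysis did not go as one with the members. Of 11 tested among 18, 5 were called higher and 2 lower between saline-treated and wild-type libraries (median 0.34), 4 higher and 5 lower between ABE-treated and wild-type (median -0.02), and 4 higher and 6 lower between ABE-treated and saline-treated libraries (median -0.13). Of all genes tested, 25.8%, 34.7% and 24.8% were called higher and 26.9%, 35.8% and 23.6% lower in these comparisons. These shares stand beside the counts of every gene list here, and some of those counts lie near them. Tpi1, triose phosphate isomerase, rose from 18.0 ± 6.47 (SD, n = 12) scaled TPM in wild-type to 36.4 ± 20.1 in saline-treated and 68.9 ± 32.8 in ABE-treated libraries, a log2 difference of 1.80 ± 0.28 (SE) between the last and the first (adjusted p = 1.29e-06, limma). Gpi1, glucose phosphate isomerase, rose less, from 14.4 ± 1.42 to 18.9 ± 2.88 and 22.8 ± 5.30 (0.62 ± 0.10, adjusted p = 1.18e-06, limma). Eno1 at 0.13 ± 0.10 (adjusted p = 0.233, limma) did not pass between ABE-treated and wild-type libraries.

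Genes of glycogen metabolism were called higher for 6 and lower for 3 of 17 tested between saline-treated and wild-type libraries (median 0.63), for 12 and 5 between ABE-treated and wild-type (median 1.54) and for 11 and 2 between ABE-treated and saline-treated libraries (median 0.73). The most abundant were Pgm1, phosphoglucomutase, Ugp2, which makes UDP-glucose, Gys1, the glycogen synthase of muscle, and Phka1, a subunit of muscle phosphorylase kinase. Between ABE-treated and wild-type libraries they were higher by 1.89 ± 0.32 (SE, log2, adjusted p = 3.55e-06, limma), 1.66 ± 0.26 (adjusted p = 1.38e-06), 1.68 ± 0.23 (adjusted p = 1.42e-07) and 1.77 ± 0.31 (adjusted p = 5.65e-06). Pygb, the brain phosphorylase, was among those lower, at -0.35 ± 0.06 (adjusted p = 2.01e-06, limma) in the same comparison.

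Among 7 tested genes of creatine and adenylate metabolism, 4 were called higher and 0 lower between saline-treated and wild-type libraries (median 0.75), 6 and 1 between ABE-treated and wild-type (median 1.24), and 4 and 2 between ABE-treated and saline-treated libraries (median 0.52). Ckmt2, the creatine kinase of muscle mitochondria, had means of 11.4 ± 7.51 (SD, n = 12), 22.1 ± 15.1 and 70.9 ± 43.0 scaled TPM in the order wild-type, saline and ABE, and its difference between the last and the first was 2.61 ± 0.47 (SE, log2, adjusted p = 9.54e-06, limma). Ak1, adenylate kinase, was higher by 2.44 ± 0.37 (adjusted p = 8.33e-07, limma) and Ampd1, the AMP deaminase of muscle, by 2.09 ± 0.42 (adjusted p = 4.38e-05, limma) in that comparison.

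Markers of other cells of bone and marrow went their own ways, and their part in the results was not tested. Of 5 osteocyte markers tested, 5 were called higher and 0 lower between saline-treated and wild-type libraries (median 2.77), 5 and 0 between ABE-treated and wild-type (2.43) and 0 and 1 between ABE-treated and saline-treated libraries (-0.13). In the same order of comparisons, the counts called higher and lower were 2 and 0, 3 and 0, and 1 and 1 of 8 osteoblast markers (medians 0.21, 0.41 and 0.13), and 7 and 0, 5 and 0, and 0 and 5 of 7 osteoclast markers (0.76, 0.36 and -0.53). Erythroid markers gave 0 and 1, 0 and 6, and 0 and 6 of 7 (0.12, -0.83 and -1.03), and neutrophil markers 2 and 0, 0 and 2, and 0 and 7 of 8 (0.42, -0.22 and -0.75). B cell markers gave 0 and 5, 0 and 6, and 0 and 1 of 6 (-0.80, -0.66 and 0.14). Cartilage markers gave 0 and 4, 0 and 4, and 3 and 0 of 4 (-2.04, -1.16 and 0.88), and Prg4, lubricin of joint surfaces, fell from 84.0 ± 47.2 (SD, n = 12) scaled TPM in wild-type to 0.607 ± 0.601 in saline-treated libraries. Adipocyte markers gave 1 and 1, 0 and 2, and 0 and 4 of 4 (-0.10, -0.87 and -0.77), and smooth muscle markers 0 and 0, 2 and 0, and 2 and 0 of 3 (-0.0032, 0.54 and 0.64).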

How the data were processed

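RNA from 36 tibiae was sequenced from stranded mRNA libraries. Per the labels, the authors aligned reads with STAR 2.73a to GRCm38, and they deposited TPM per gene with the gene's length and GC fraction, which was not used in a test. Between 84.7 and 96.6% of the deposited TPM fell on genes of 219 bp or less, so libraries were divided by the median ratio over 14219 genes above 0 in all 36. Whole reads came out for 100.0% of values (within 0.001 reads) from TPM and length. The 16123 genes whose mean reached 0.5 TPM were tested as log2(scaled TPM + 0.5), a scale that understates changes of low genes, in limma 3.58.1 (R 4.3.3) with sex as a covariate and Benjamini-Hochberg adjustment at 0.05. On simulated data the fit recovered 55 of 67 genes changed 1.5-fold, 66 of 67 changed 2-fold and 65 of 66 changed 3-fold between saline-treated and wild-type libraries, with 7 others called among 16123 genes. The simulation drew each gene on its own, with the spread of wild-type libraries and few genes changed. It holds no variation shared between genes, so these rates do not carry over to the real libraries. Permutation tests were computed with numpy 2.4.6, and their p-values were adjusted with scipy 1.17.1. The members and gene lists were chosen with earlier results of these data known. Named genes were the 10 members, their paralogs, the 4 most abundant tested genes of each list and the 5 genes nearest to Ckm, Gapdh, Pgk1 and Pkm, of which some are given by count alone and some near Pkm are not reported here. Alternatives covered pseudocount, filter, scaling, recovered reads, weights, sex, the muscle covariate and libraries left out. No pair of libraries was a duplicate (0 pairs).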

Additional observations from a re-analysis of the deposited data

How the results depend on the processing

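No paired analysis was possible because the labels give no replicate numbers shared between groups. Against 8497 genes called of 16123 tested between saline-treated and wild-type libraries, separate fits called 13239 of 43628 with no filter on low values, 2127 of 4048 with a mean of at least 5 TPM, 4761 on TPM as deposited and 3514 in females alone. Between ABE-treated and wild-type libraries (11364) the counts were 19311, 2704 and, with the muscle list as a covariate, 4698. Between ABE-treated and saline-treated libraries (7798) they were 1831 with a mean of at least 5 TPM, 4955 in females, 3429 in males and 435 with the covariate. Members called between saline-treated and wild-type libraries (7) numbered 3 as deposited, 0 in females, 2 with the covariate and 5, without Pgam2 and Eno3, with no filter, with the compared groups only or with TPM rescaled without the short genes that hold most of it. They numbered 9 with limma-voom on recovered reads, where Ckm and Pfkm passed, and 10 with quantile normalization, array weights or males only, where Pygm did too. Of all genes, 4159 of 16123 were called higher in the main fit, 4225 with limma-voom, 4188 with quantile normalization, 5221 with array weights and 4534 in males. The number called higher was 5749 of 43628 with no filter, 4663 with the compared groups only and 1863 with the rescaled TPM. With the covariate 1 was called between ABE-treated and wild-type libraries, and 0 were between ABE-treated and saline-treated libraries with the covariate, as deposited or in males. The sex interaction between saline-treated and wild-type libraries (79 genes) gave 203 with a pseudocount of 0.1, 41 with 1, 0 as deposited, 1 with no filter and 3304 with array weights, and that between ABE-treated and saline-treated libraries (8) gave 0 with no filter and 2033 with weights. Isoform ratios called in females alone numbered 0 in each comparison, and in males alone 2 in ABE-treated against saline-treated libraries. The cause of these shifts was not tested, apart from the fewer or more genes and samples that a setting holds.

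Leaving out 1 library at a time gave 7914 to 8838, 11135 to 11575 and 6789 to 8642 genes and 5 to 10, 10 to 10 and 9 to 10 members in the 3 comparisons. The sex interactions ranged from 0 to 1102 and from 0 to 409 genes, and the ratios called from 1 to 3, 7 to 7 and 7 to 7. Members called between saline-treated and wild-type libraries were 5 without wild-type 1 and 10 without wild-type 6, where 3918 and 4375 of 16123 genes were called higher. Between these groups Ckm and Pygm passed without wild-type 6, saline-treated 3 or saline-treated 4, and Pfkm also without saline-treated 9, while the call was lost without any 1 of 14 libraries for Pgam2, 13 for Eno3 and 10 for Pygm/Pygb.

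Directions turned in these cases. With the muscle covariate Ckm, Pygm, Pgam2, Eno3 and Pfkm stood at -0.19, -0.23, -0.11, -0.094 and -0.14 between saline-treated and wild-type, at -0.39, -0.38, -0.26, -0.21 and -0.19 between ABE-treated and wild-type, and at -0.21, -0.15, -0.15, -0.12 and -0.042 between ABE-treated and saline-treated libraries, where Aldoa and Gapdh stood at -0.18 and -0.082. Between saline-treated and wild-type females alone Ckm and Pygm stood at -0.045 and -0.019, and the ratios Pygm/Pygl, Pgam2/Pgam1 and Eno3/Eno1 at -0.49, -0.51 and -0.49. In males alone Ckm/Ckb stood at 0.61 and Ldha/Ldhb at -0.12, and with 1 library left out Ckm/Ckb ranged from -0.46 to 0.034, the latter without saline-treated 4. The 2 fits without wild-type 1 and 11 were added after seeing the data.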

Other observations

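Genes that respond to low oxygen and lie outside glycolysis were called higher for 6 and lower for 0 of 10 tested between saline-treated and wild-type libraries (median log2 difference 0.48), for 9 and 1 between ABE-treated and wild-type (1.07) and for 6 and 0 between ABE-treated and saline-treated libraries (0.52). Of all genes tested, 25.8%, 34.7% and 24.8% were called higher and 26.9%, 35.8% and 23.6% lower in these comparisons. These shares also stand beside the list of transport and control genes below. Ddit4, an inhibitor of mTORC1 signalling, had means of 6.18 ± 2.19 (SD, n = 12) scaled TPM in wild-type libraries, 25.1 ± 8.11 with saline and 23.1 ± 3.90 with ABE, and differed by -0.06 ± 0.18 (SE, log2, adjusted p = 0.823, limma) between the last 2. Ndrg1 had means of 3.60 ± 0.791, 10.9 ± 2.38 and 10.7 ± 1.85 scaled TPM and differed by -0.01 ± 0.11 (adjusted p = 0.970, limma) between the treated groups. Vegfa, the growth factor of blood vessels, was higher by 0.74 ± 0.15 in ABE-treated than saline-treated libraries (adjusted p = 0.000646, limma) and Egln1, an oxygen sensor, by 0.94 ± 0.20 (adjusted p = 0.000818, limma).

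Genes of glucose and lactate transport and of the control of glycolysis were called higher for 6 and lower for 3 of 16 tested between saline-treated and wild-type libraries (median 0.24), for 10 and 4 between ABE-treated and wild-type (0.56) and for 8 and 3 between ABE-treated and saline-treated libraries (0.32). Pdk4, a kinase that holds back pyruvate oxidation, was higher by 1.78 ± 0.37 (SE, log2) in saline-treated than wild-type libraries (adjusted p = 0.000141, limma). Slc2a4, the insulin-dependent glucose carrier GLUT4, was higher by 1.20 ± 0.27 in ABE-treated than saline-treated libraries (adjusted p = 0.00131, limma).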
